A study of Mus musculus with 4 samples.

Results

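The genes described here are 10 markers of liver macrophages: 5 that mark resident Kupffer cells (Clec4f, Timd4, Vsig4, Marco and Cd5l) and 5 that macrophages express more broadly or take up after entering the tissue (Adgre1, Cd68, Lyz2, Csf1r and Gpnmb). They were chosen by name, as probe sets of a whole-transcript microarray that GEO's platform annotation pairs with exactly 1 gene symbol. All 10 had 1 such probe set, among 19938 genes measured. The 4 arrays came from livers of mice labelled male and aged 8 weeks: wildtype, MDR2 knockout, GHR knockout, and GHR/MDR2 Double knockouts. For every genotype the RNA of 3 livers was combined and run on 1 array. Strain, and the cells in which each gene was deleted, are not given in the sources used here. MDR2, the protein of Abcb4, moves phosphatidylcholine into bile, and mice without it develop cholestatic bile duct injury and fibrosis. GHR is the growth hormone receptor. The series title asks whether growth hormone resistance worsens that fibrosis.

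Kupffer cells are the macrophages that live in the liver sinusoids, where they clear bacteria, dying cells and aged red cells from the blood. They are seeded before birth and largely renew themselves. In injured liver, monocytes enter from the blood, drawn by CCL2 through the receptor CCR2, and become macrophages that carry general macrophage genes before, or without, taking on the genes of resident cells.

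Each genotype was a single array, so the differences between pools below have no replicate check and no p-value. Values are intensities on a linear scale after the authors' normalization, and the number of arrays limits their precision. An intensity of 100, the median over all probe sets with 1 symbol, served as the level filter, and a difference of 1.5-fold as the call. Ghr intensity was 4944 and 4485 in the wild-type and MDR2 knockout pools and 1395 and 935 in the GHR knockout and double knockout pools. Abcb4 was 1120, 663, 1346 and 689 in the wild-type, MDR2 knockout, GHR knockout and double knockout pools. Xist, the RNA of X inactivation in female cells, was 16, 18 and 17 in the other pools but 1400 in the GHR knockout pool, although all are labelled male. The GHR knockout pool therefore stands apart. Only the MDR2 knockout against wild-type, double knockout against MDR2 knockout and double knockout against wild-type comparisons do without it. In whole liver, fewer cells of a type and less RNA per cell cannot be told apart.

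Promoter sequence is shown for Clec4f, whose level in the double knockout pool was close to wild type, and for Cd68 and Gpnmb, which were highest there. RefSeq's promoter table (GRCm38.p6) held 8 of the 10 genes, each with 1 window from 250 bases before to 50 after the gene's start. Capitals mark GAGGAA, the core that PU.1 and related ETS factors of myeloid cells bind, and TGANTCA, the AP-1 site, both searched on both strands. The motifs were chosen after the promoters had been seen. The windows are chr6:83656067-83656366 (minus strand) for Clec4f, chr11:69666121-69666420 (minus strand) for Cd68 and chr6:49036268-49036567 (plus strand) for Gpnmb.
Clec4f: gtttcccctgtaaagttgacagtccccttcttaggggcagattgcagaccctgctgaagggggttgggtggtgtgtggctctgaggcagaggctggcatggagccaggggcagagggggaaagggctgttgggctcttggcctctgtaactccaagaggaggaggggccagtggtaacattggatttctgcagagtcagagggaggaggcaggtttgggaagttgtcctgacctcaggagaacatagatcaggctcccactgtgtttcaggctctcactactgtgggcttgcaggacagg
Cd68: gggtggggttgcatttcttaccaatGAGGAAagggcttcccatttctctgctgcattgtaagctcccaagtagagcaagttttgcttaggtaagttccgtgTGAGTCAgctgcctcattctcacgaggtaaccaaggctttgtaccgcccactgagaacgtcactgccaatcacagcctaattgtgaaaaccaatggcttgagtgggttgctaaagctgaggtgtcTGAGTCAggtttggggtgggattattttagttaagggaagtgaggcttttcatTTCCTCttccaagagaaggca
Gpnmb: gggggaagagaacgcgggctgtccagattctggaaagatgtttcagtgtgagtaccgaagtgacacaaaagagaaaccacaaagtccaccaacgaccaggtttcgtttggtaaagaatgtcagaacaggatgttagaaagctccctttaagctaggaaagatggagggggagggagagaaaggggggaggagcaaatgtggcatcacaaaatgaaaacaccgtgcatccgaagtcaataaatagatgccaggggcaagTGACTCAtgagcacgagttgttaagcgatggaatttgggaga
The Clec4f window held neither motif, the Cd68 window held 2 matches to each, and the Gpnmb window held 1 match to TGANTCA and none to GAGGAA. The AP-1 site was present in 2 of the 8 windows and in 7.81% of the 32851 promoter windows of the table. GAGGAA was present in 4 of the 8 (Vsig4, Marco, Cd5l and Cd68) and in 28.3% of all windows. A match describes letters in the window and is no evidence of binding.

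The 3 resident genes Clec4f, Timd4 and Cd5l had one pattern: higher than wild type with loss of either gene alone and close to wild type with loss of both. Clec4f (probe set 10545731), a lectin restricted to Kupffer cells in mice, stood at 677 in the wild-type, 885 in the MDR2 knockout, 993 in the GHR knockout and 628 in the double knockout pool. Timd4 (probe set 10375472), the phosphatidylserine receptor TIM-4 that binds dying cells, was 251, 323, 368 and 258 in the same order of pools. Cd5l (probe set 10492964), a secreted scavenger-receptor protein that protects macrophages from apoptosis, was 439, 604, 637 and 468. In each of these 3 genes the wild-type and double knockout pools were the lowest pair and lay within 1.08-fold of each other. Among the 10764 genes passing the level filter on some array, 9.24% were likewise higher than wild type in both single knockouts and lower in the double knockout than in either, as were these 3 of the 9 passing members; this pattern was noted after the values were seen. The single knockouts lay 1.29-fold to 1.47-fold above wild type, each short of 1.5-fold. The sign of the small Timd4 difference between the double knockout and wild-type pools (0.04 log2) turned with median centring.

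Vsig4 and Marco departed from that pattern in different ways. Vsig4 (probe set 10605848), a complement receptor that captures C3b-coated particles, stood at 666 in the wild-type, 1578 in the MDR2 knockout, 1075 in the GHR knockout and 1426 in the double knockout pool. It was thus 2.37-fold above wild type with MDR2 loss and 2.14-fold above it with loss of both. Marco (probe set 10357261), a scavenger receptor for bacteria, was 46, 71, 45 and 85, higher in both pools without MDR2 but below the level filter on every array. Whether Marco was above background is unknown, so its ratios are not exact.

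The 5 other macrophage genes were all lowest in the wild-type pool and highest in the double knockout pool, in the order wild type, GHR knockout, MDR2 knockout, double knockout. That wild type was lowest and the double knockout highest held for 17.1% of the 10764 genes passing the level filter. This order was noted after the values were seen. Lyz2 (probe set 10372648), the lysozyme of monocytes, macrophages and neutrophils, was 847 in the wild-type, 977 in the GHR knockout, 2879 in the MDR2 knockout and 5243 in the double knockout pool. Cd68 (probe set 10387536), a glycoprotein of macrophage endosomes and lysosomes, was 167, 271, 395 and 589 in that order. Csf1r (probe set 10456071), the receptor through which CSF1 and IL-34 keep macrophages alive, was 449, 643, 946 and 1244. The double knockout pool exceeded the wild-type pool by 6.19-fold for Lyz2, 3.53-fold for Cd68 and 2.77-fold for Csf1r. Adgre1 (probe set 10446282), the F4/80 antigen of mouse macrophages including Kupffer cells, was 302, 426, 593 and 645, and its MDR2 knockout and double knockout pools differed by only 1.09-fold. Gpnmb (probe set 10538187), a glycoprotein of lipid-laden macrophages that osteoclasts and melanocytes also make, was 40, 44, 74 and 159. It passed the level filter through the double knockout pool alone, so its ratios against the other pools are not exact.

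**Figure D1:**
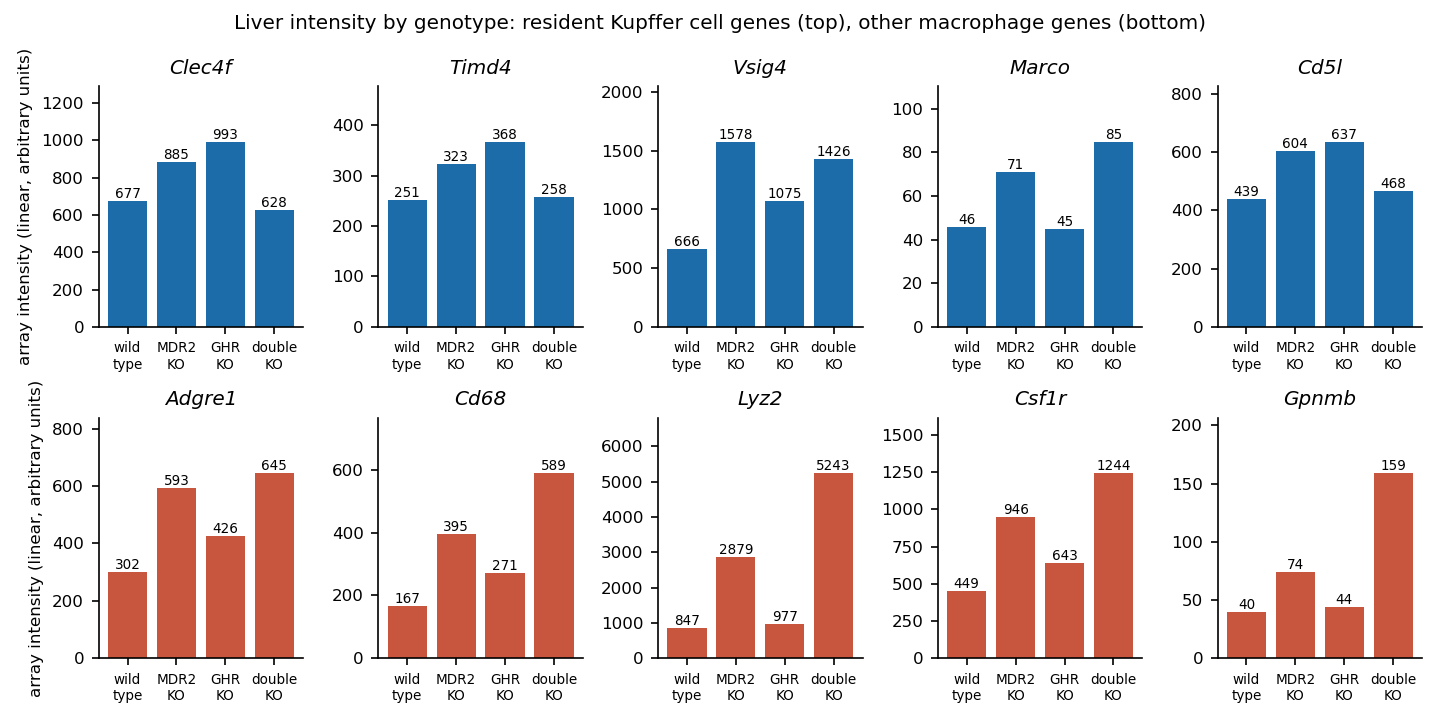
Intensity (linear, arbitrary units, axes from 0) of the 10 genes in the 4 pools, 1 array each, with the value above each bar; blue bars are resident Kupffer cell genes and red bars the other macrophage genes, and KO means knockout. Clec4f, Timd4 and Cd5l are lowest in the wild-type and double knockout pools, whereas every red panel is highest in the double knockout pool.

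Loss of MDR2 with the growth hormone receptor intact (MDR2 knockout against wild-type pool) gave higher values for all 10 genes, most in the broad markers. The median log2 difference was 0.46 over the 5 resident genes (0.36 to 1.24) and 1.08 over the 5 others (0.89 to 1.77), against -0.04 over the 10258 genes with a pool at or above 100. Among the 8 members that passed, 5 were at least 1.5-fold higher, against 6.07% of those genes, and none was 1.5-fold lower, against 3.58%. These 5 were Lyz2 at 3.40-fold, Cd68 and Vsig4 at 2.37-fold each, Csf1r at 2.11-fold and Adgre1 at 1.96-fold. Marco and Gpnmb, below the filter in both pools, were 1.54-fold and 1.85-fold higher.

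Loss of GHR with MDR2 intact (GHR knockout against wild-type pool, the pool with Xist at 1400) gave similar medians in both groups, 0.55 for the resident genes and 0.50 for the others, against 0.10 over 10052 genes. Vsig4 at 1.61-fold and Cd68 at 1.62-fold were the 2 of 8 passing members at or above 1.5-fold, against 4.23% of genes, and none was 1.5-fold lower, against 2.47%. Clec4f and Timd4 at 1.47-fold and Cd5l at 1.45-fold lay just inside the threshold, and Marco, Gpnmb and Lyz2 were within 1.15-fold of wild type. The count depends on scaling: median centring, which moved the median of all genes by -0.12, left 0 of the 8 at or above 1.5-fold, and hepatocyte centring gave 5. Of all calls in this comparison 63.2% were higher, against 41.4% with median centring, 51.4% with cyclic loess and 74.1% with hepatocyte centring.

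Loss of GHR on top of MDR2 loss (double knockout against MDR2 knockout pool) gave lower values for 4 of the 5 resident genes and higher values for all 5 others. Clec4f was 1.41-fold, Cd5l 1.29-fold, Timd4 1.25-fold and Vsig4 1.11-fold lower, and Marco 1.20-fold higher, so no resident gene reached 1.5-fold, although with median centring the Clec4f difference of -0.59 did. The other genes were all higher, Gpnmb by 2.15-fold, Lyz2 by 1.82-fold, Cd68 by 1.49-fold, Csf1r by 1.32-fold and Adgre1 by 1.09-fold. The medians were -0.32 and 0.58, against 0.06 over 10524 genes, and both kept their sign under every scaling tried. At 1.5-fold, Lyz2 and Gpnmb were higher, 2 of 9 passing members against 7.16% of genes, and none was lower, against 3.89%. Gpnmb passed only through the double knockout pool, and without it the count was 1 of 8. Higher calls were 64.8% of all calls, against 49.3% with median centring and 74.6% with hepatocyte centring.

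Loss of MDR2 without the growth hormone receptor (double knockout against GHR knockout pool) gave higher values for the other genes and lower ones for 3 of the 5 resident genes. All 5 other genes were at least 1.5-fold higher, from Adgre1 at 1.51-fold to Lyz2 at 5.37-fold, against 9.95% of 10514 genes. Gpnmb, at 3.61-fold, passed the filter only through the double knockout pool; without it 4 of 8 passing members were higher. Clec4f was 1.58-fold lower, the 1 passing resident gene past 1.5-fold, against 9.92% of genes lower. With cyclic loess the Clec4f difference was -0.56 and no longer past 1.5-fold, and with log2(intensity + 16) that of Adgre1 was 0.58, also short of it. Timd4 and Cd5l were 1.43-fold and 1.36-fold lower, Vsig4 was 1.33-fold higher and Marco, below the filter, 1.89-fold higher. The medians were -0.44 and 1.12, against -0.06 over all genes passing.

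Against wild type (double knockout against wild-type pool), 6 of 9 passing members were at least 1.5-fold higher, against 13.7% of 10487 genes, and none lower, against 7.57%. The 6 were Vsig4 and all 5 of the other genes. Without Gpnmb, which passed only through the double knockout pool, the count was 5 of 8. The median was 0.09 for the resident genes and 1.82 for the others, against 0.01 over all genes passing. These comparisons share pools, so they are not independent of each other.

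**Figure D2:**
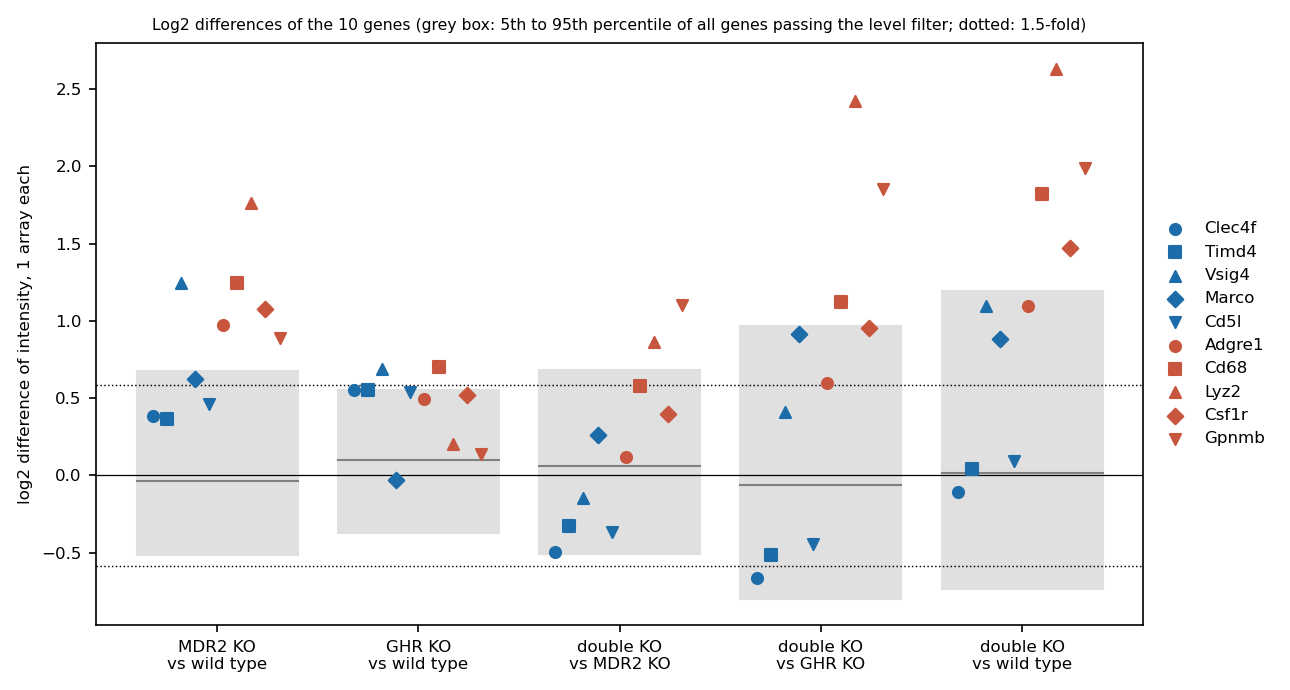
Log2 difference of intensity for each of the 10 genes in 5 comparisons of single arrays; blue symbols are resident genes, red symbols the other macrophage genes, the grey box spans the 5th to 95th percentile of all genes passing the level filter with their median as a line, and dotted lines mark 1.5-fold. In the double knockout against MDR2 knockout comparison 4 of 5 blue symbols lie below 0 and all red symbols above it.

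The difference of the differences measures how far the double knockout departs from the sum of the single losses on the log2 scale: the difference with GHR loss in mice without MDR2, minus the same difference in mice with MDR2. It was -1.05 for Clec4f, -0.91 for Cd5l, -0.88 for Timd4 and -0.84 for Vsig4, so that the double knockout pool lay 1.79-fold to 2.07-fold below the sum of the single losses. Among the 10764 genes passing the filter, 6.72% lay at least 1.5-fold below additive, and the 5th and 95th percentiles were -0.66 and 0.60. Marco was at 0.29. Of the other genes, Adgre1 was at -0.38, Cd68 and Csf1r were at -0.12 each, Lyz2 was at 0.66 and Gpnmb at 0.97. Lyz2 was at least 1.5-fold above additive, as were 5.29% of genes. So was Gpnmb, which passed the filter only through the double knockout pool and is given as a description. The robust SD of this quantity over all genes was 0.32, which contains real departures as well as error. Under the other scalings and row choices Clec4f ranged from -1.05 to -1.02 and Gpnmb from 0.86 to 1.01. With 4 arrays and 4 genotypes no residual remains, so this quantity has no test, and it rests in part on the GHR knockout pool. Without that pool, the lower values of Clec4f, Timd4, Cd5l and Vsig4 in the double knockout than in the MDR2 knockout pool remain as given.

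**Figure D3:**
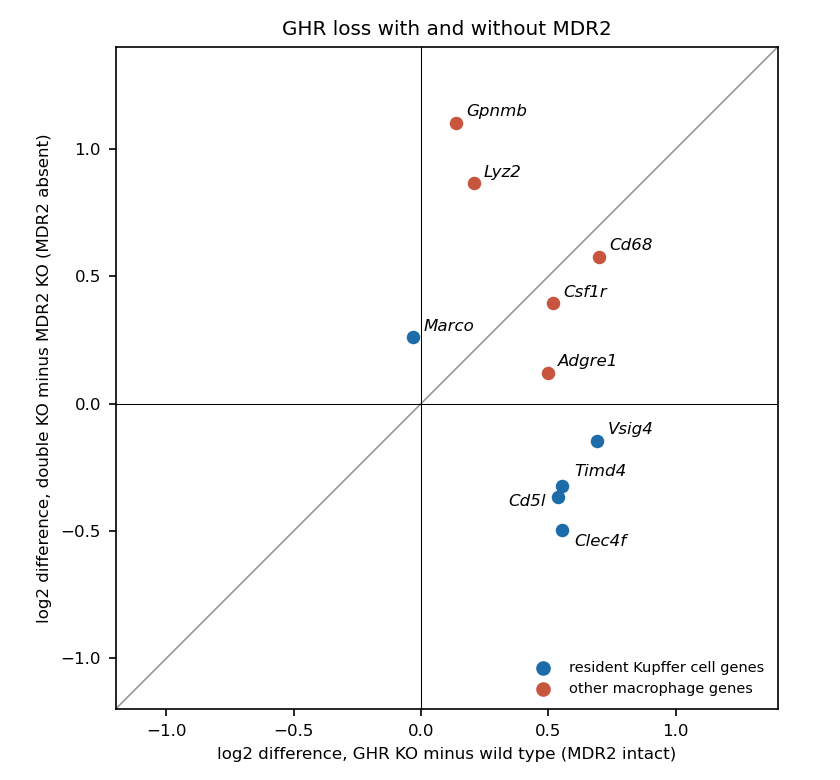
Log2 difference with loss of GHR when MDR2 is present (x axis) against the same difference when MDR2 is absent (y axis) for the 10 genes, 1 array per genotype; the diagonal marks equal differences. Clec4f, Timd4, Cd5l and Vsig4 lie to the right of 0 and below it, whereas Gpnmb and Lyz2 lie above the diagonal.

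The only test that 4 arrays allow is limma with MDR2 and GHR status as additive factors, which gives the average effect of each loss over both backgrounds and takes departures from additivity as its error. Loss of MDR2 raised 3 of the 9 members tested at an adjusted p under 0.05, and lowered none. Over all genes 2.99% were called higher and 0.762% lower. Lyz2 rose by 2.09 ± 0.20 log2 (SE; limma adjusted p = 0.021), Cd68 by 1.18 ± 0.14 (limma adjusted p = 0.028) and Csf1r by 1.01 ± 0.14 (limma adjusted p = 0.033). Each was higher in both of the pools without MDR2 than in its counterpart. Gpnmb at 1.37 ± 0.25 (limma adjusted p = 0.053), Adgre1 at 0.79 ± 0.16 (limma adjusted p = 0.063) and Vsig4 at 0.83 ± 0.23 (limma adjusted p = 0.11) missed the threshold. Gpnmb entered the test only through the double knockout pool, where it was highest, so its values are a description. Clec4f at -0.14 ± 0.26, Timd4 at -0.07 ± 0.23 and Cd5l at 0.01 ± 0.24 had average effects smaller than their SE. All 3 calls were lost when the arrays were centred on hepatocyte markers or the level filter was dropped. Over 8 alternatives the adjusted p ranged from 0.014 to 0.33 for Lyz2, from 0.019 to 0.33 for Cd68 and from 0.024 to 0.33 for Csf1r.

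For the average effect of GHR loss limma called 0 of the 9 members, while 0.204% of all genes were called higher and 0.316% lower. At an unadjusted p under 0.05, which 9.53% of all genes passed in the higher direction, 3 of the 9 were higher, namely Cd68 at 0.64 ± 0.14, Csf1r at 0.46 ± 0.14 and Lyz2 at 0.54 ± 0.20 log2. Clec4f, Timd4 and Cd5l had average effects of 0.03 ± 0.26, 0.11 ± 0.23 and 0.08 ± 0.24 log2, which average differences of opposite sign in the presence and absence of MDR2.

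Lyz2 has a close paralog next to it, Lyz1, the lysozyme of Paneth cells, and probes of the pair can share sequence. Lyz1 intensity was 55 in the wild-type, 56 in the GHR knockout, 120 in the MDR2 knockout and 251 in the double knockout pool. It followed the order of Lyz2, and the signals of the pair cannot be told apart here.

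Further Kupffer cell genes did not share a single pattern. Of 11 that passed, 5 were at least 1.5-fold higher with MDR2 loss, against 6.07% of genes, and none lower. With GHR loss on top of it 1 of 10 was higher and 1 lower, close to the shares over all genes of 7.16% and 3.89%. The medians of the list were 0.33 and -0.02, the second turning above 0 with hepatocyte centring. The folate receptor gene Folr2 stood at 214 in the wild-type, 345 in the MDR2 knockout, 328 in the GHR knockout and 286 in the double knockout pool, and its difference of differences was -0.89. The haptoglobin-hemoglobin receptor gene Cd163 was 118, 89, 160 and 81, and the iron exporter gene Slc40a1 was 2053, 2011, 1897 and 1394. The complement C1q genes C1qb and C1qc had the order of the broad markers: C1qb was 566, 1287, 818 and 1680, and C1qc was 541, 1070, 805 and 1718. The complement component C6, which hepatocytes also make, was the member lower with GHR loss in the absence of MDR2 in neither pool order above: it stood at 2597 in the wild-type, 4355 in the MDR2 knockout, 385 in the GHR knockout and 860 in the double knockout pool.

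Several genes that feed and transmit the CSF1 signal had the order of Csf1r over the pools. The ligand gene Csf1 stood at 142 in the wild-type, 307 in the MDR2 knockout, 223 in the GHR knockout and 383 in the double knockout pool. The second ligand, Il34, was 86, 97, 81 and 83, below the level filter throughout. Tyrobp, the adaptor DAP12 that relays signals of myeloid receptors, was 278, 609, 402 and 939. Spi1, which encodes PU.1, was 114, 182, 137 and 219. In this list, which contains Csf1r itself, 7 of 12 passing genes were at least 1.5-fold higher with MDR2 loss, 3 of 13 with GHR loss on top of it and 11 of 13 with loss of both against wild type, and none was 1.5-fold lower in these. The shares over all genes were 6.07%, 7.16% and 13.7%. Pik3cg, counted as higher in both double knockout comparisons, passed the filter only through that pool. Csf2rb2 and Runx1, counted as higher with MDR2 loss and with loss of both, were below 100 in the wild-type pool. The medians were 0.55, 0.32 and 0.94. Fc receptors and their adaptors were higher in 5 of 8 with MDR2 loss and in 1 of 9 with GHR loss on top of it, against 6.07% and 7.16% of genes, with medians of 0.69 and 0.33. Fcgr1 and Fcgr4, counted among the 5, passed the filter only through the MDR2 knockout pool. In that list Fcer1g, the shared signalling chain, was 179, 488, 320 and 619. Tyrobp is in both this list and the CSF1 list, and it was the 1 Fc gene higher with GHR loss on top of MDR2 loss.

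Of 11 monocyte genes measured, 7 reached 100 in some pool. S100a4, Chil3, F13a1 and Ms4a4c stayed below 100 on every array. With MDR2 loss 5 of 6 that passed were at least 1.5-fold higher, with GHR loss on top of it 5 of 7, against 6.07% and 7.16% of genes. In the first count, Ccr2, Cx3cr1, Clec12a and Ccl2 passed the filter only through the MDR2 knockout pool, so their calls are descriptions. Itgam, 1 of the 5 in the second count, passed the filter only through the double knockout pool, so its call is a description. The medians over all 11 measured genes, those below the filter included, were 0.89 and 0.47. Each was the value of a gene below 100 in both pools compared or in 1 of them. The first was Itgam (35 and 65) and the second Chil3 (18 and 25), so neither median is exact. The chemokine receptor gene Ccr2 stood at 29 in the wild-type, 118 in the MDR2 knockout, 33 in the GHR knockout and 186 in the double knockout pool. The fractalkine receptor gene Cx3cr1 was 72, 168, 62 and 525. Ccl2, the ligand of CCR2, was 63, 290, 63 and 1192, and its difference of differences was 2.04. Itgam, the integrin CD11b, was 35, 65, 36 and 131. In the GHR knockout pool, Ccr2, Cx3cr1, Ccl2 and Itgam lay within 1.16-fold of wild type. All were below 100 in both of these pools, so whether they were above background is unknown. The list median against wild type of 0.04 turned below 0 with median centring. Only 3 genes of the list passed in this comparison, and 1, Ms4a6c at 1.84-fold, was at least 1.5-fold higher, against 4.23% of genes.

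Genes of lipid-associated macrophages, the state in which Gpnmb is usually found, were higher in 5 of 11 passing genes with MDR2 loss and lower in 1, and higher in 7 of 13 with GHR loss on top of it. Over all genes 6.07% were higher and 3.58% lower in the first comparison and 7.16% higher in the second. Mmp12 and Atp6v0d2, counted among the 5, passed the filter only through the MDR2 knockout pool. Itgax, 1 of the 7, passed the filter only through the double knockout pool. The list medians were 0.47 and 0.63. Cd63, a tetraspanin of lysosomes and late endosomes, stood at 122 in the wild-type, 371 in the MDR2 knockout, 171 in the GHR knockout and 1804 in the double knockout pool. Mmp12, the macrophage elastase, was 51, 133, 42 and 374. Lpl, lipoprotein lipase, was 373, 730, 565 and 1801, and Trem2, the lipid-sensing receptor of these cells, was 73, 98, 70 and 134. Epithelial and other cells also make several of these, Cd63 and Cd9 among them. In the list of lysosome genes 5 of 14 were higher with MDR2 loss and 3 of 15 with GHR loss on top of it, against the same shares over all genes. Ctsk, 1 of these 3, passed the filter only through the double knockout pool. The lysosome list shares genes with the lipid-associated one, and Cd63 was counted as higher in both lists in both comparisons. In this list the cathepsin gene Ctss of antigen-presenting cells was 319, 825, 450 and 1410, while Lamp1, the general lysosome membrane protein, was 4878, 5087, 4672 and 4751.

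Of 10 passing scavenger receptors, Marco being below the filter, 1 was at least 1.5-fold higher with MDR2 loss, against 6.07% of genes, and the list median was 0.13. That was the fatty acid receptor Cd36, which hepatocytes also express, at 379 in the wild-type, 910 in the MDR2 knockout, 2232 in the GHR knockout and 1394 in the double knockout pool. With GHR loss on top of MDR2 loss 1 of 9 was higher and 1 lower, close to the 7.16% and 3.89% of all genes. The macrophage scavenger receptor Msr1 was 301, 395, 372 and 501. Of 14 activation genes, 10 were below the filter on every array, including Nos2, Tnf, Il6, Il10 and Retnla. Il1b was 57, 119, 79 and 153, and Ccl17 was 44, 68, 47 and 145. In that list 2 of 3 passing genes, Il1b and Cxcl10, were higher with MDR2 loss, against 6.07% of genes. Both passed the filter only through the MDR2 knockout pool, Cxcl10 at exactly 100, so these calls are descriptions. With GHR loss on top of MDR2 loss 1 of 4 was higher, against 7.16% of genes. This was Ccl17, which passed only through the double knockout pool.

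**Figure D4:**
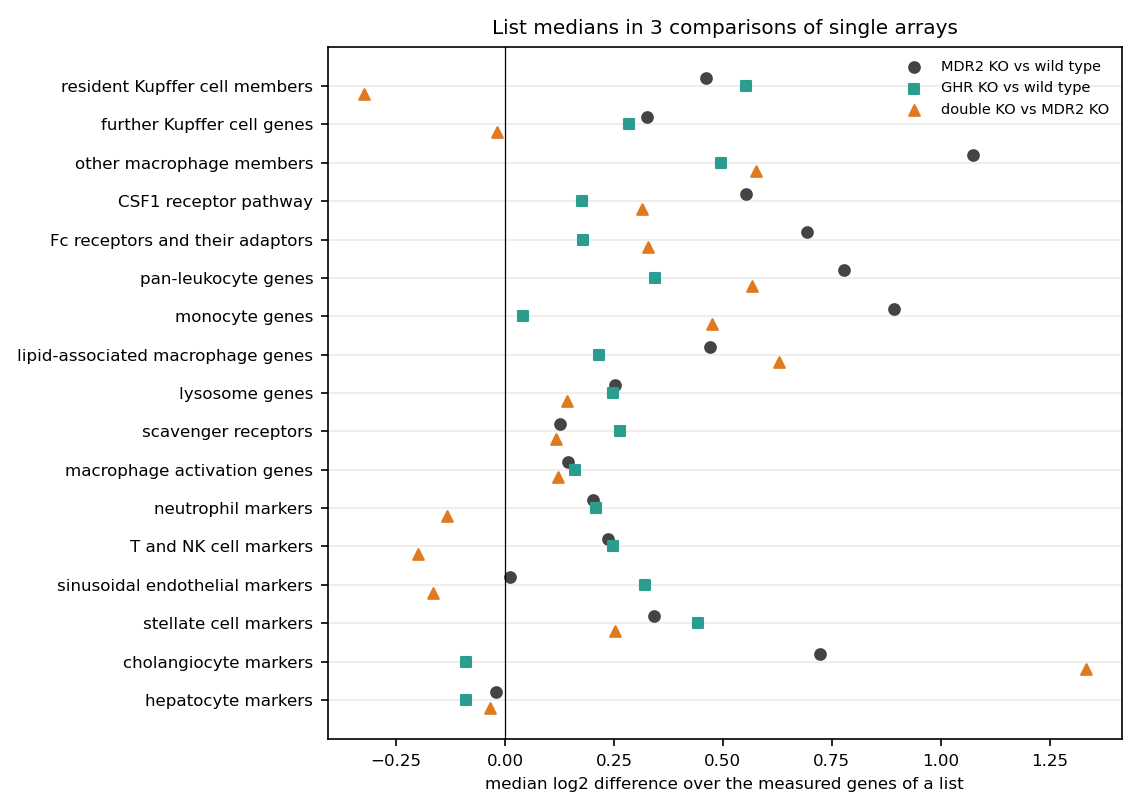
Median log2 difference over the measured genes of each list in 3 comparisons of single arrays, with 1 symbol shape per comparison and 0 as a line. In the double knockout against MDR2 knockout comparison the resident genes lie at -0.32 and the cholangiocyte markers at 1.33, with the other macrophage genes between them at 0.58.

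Markers of other cells differed in how far they followed these groups, and their part in the results was not tested. Pan-leukocyte genes summed to 2153 in the wild-type, 3694 in the MDR2 knockout, 2264 in the GHR knockout and 4084 in the double knockout pool. Without Lcp1, which was 1130, 1359, 573 and 968, they summed to 1023, 2335, 1691 and 3116. With MDR2 loss 5 of 6 passing members were at least 1.5-fold higher, against 6.07% of genes. Cd52, 1 of the 5, passed the filter only through the MDR2 knockout pool. With GHR loss alone 3 of 6 were higher and 1, Lcp1, lower, against 4.23% and 2.47%. Of 11 neutrophil markers 10 were below 100 on every array, the list summed to 425 to 532, and S100a8 and Ly6g did not exceed 55 and 31. The one that passed, the receptor gene Csf3r, was 51 in the wild-type, 73 in the GHR knockout, 88 in the MDR2 knockout and 121 in the double knockout pool. It passed the filter only through the double knockout pool, so its highest value there was fixed by the filter and is a description. For T and NK cells 10 of 11 were below 100 on every array and the list summed to 450 to 604, highest in the GHR knockout pool, where Cd3e was 174 against 94 in wild type. For dendritic cells 6 of 8 were below 100 on every array, with sums of 486 to 680. B cell markers summed to 272, 325, 399 and 529, and the immunoglobulin joining chain Jchain, at 289 in the double knockout pool, carried most of the last. Melanocyte markers, relevant to Gpnmb, were below 100 on every array in 5 of 6, Mitf being the exception, and summed to 321 to 389. Of 4 peritoneal macrophage markers measured, 3 passed the filter, and the list summed to 1397 to 1696. They differed in direction: from wild type to double knockout, Gata6 was 316 and 730, Prg4 926 and 666, and Icam2 113 and 77.

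Endothelial, stellate and bile duct markers moved in different directions. The 8 sinusoidal endothelial markers summed to 5334 in the wild-type, 5875 in the MDR2 knockout, 6667 in the GHR knockout and 5398 in the double knockout pool. Clec4g made up much of that sum; without it the sums were 3015, 3140, 3776 and 2838. In the double knockout pool 5 of the 8 were below wild type, and 1 of 8, Clec4g, had the order of Timd4 and Cd5l. The list's median difference of differences was -0.48, with 2 of 8 at least 1.5-fold below additive, against 6.72% of genes. Sinusoidal cells border Kupffer cells, and whether their levels are linked was not tested. Stellate cell markers summed to 5754, 7671, 7198 and 9922. Cholangiocyte markers, 6 measured, summed to 455, 709, 372 and 1726, highest in the double knockout pool as were the broad macrophage genes. With GHR loss on top of MDR2 loss all 6 bile duct markers were at least 1.5-fold higher, against 7.16% of genes. Of these, Cftr and Tspan8 passed the filter only through the double knockout pool. In the same comparison 2 of 8 stellate markers were higher and 1 lower, against 7.16% and 3.89% of genes. None of the 8 endothelial markers was past 1.5-fold. The 15 hepatocyte markers summed to 140775 to 148634.

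The genes whose pattern over the 4 pools was most like the mean of the resident genes, by Euclidean distance of centred log2 values, were Efcc1, Snx20, Man2b2, Sdc3 and Rac2, at distances of 0.05 to 0.09. Rac2, a GTPase of blood cells, stood at 158 in the wild-type, 243 in the MDR2 knockout, 203 in the GHR knockout and 212 in the double knockout pool. Most like the mean of the other genes were Vim, Fxyd5, Stmn1, Atf3 and Slco3a1, at 0.07 to 0.11. Vim, the intermediate filament of mesenchymal cells and leukocytes, was 569, 1279, 794 and 1992. Most like Gpnmb were F630028O10Rik, Rhoc, Itgam, Sstr2 and Ccl3, at 0.09 to 0.12. Itgam and the macrophage chemokine Ccl3, at 31, 54, 31 and 111, are genes of myeloid cells. With 4 points and 10764 genes to choose from, close matches arise easily, and these are descriptions.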

How the data were processed

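RNA of 3 livers per genotype was pooled and measured on 1 array each, 4 in all. The authors' deposited intensity values came from RMA (background correction, quantile normalization, probe summary) in Affymetrix Expression Console 1.1, per the submitters' processing notes. They were whole numbers from 6 to 22355 on a linear scale, so log2 of the deposited intensity was taken, and rounding makes low values coarse. Of 35556 rows, 21789 had 1 gene symbol in GEO's platform annotation, and 21698 of these matched RefSeq gene identifiers of GRCm38.p6. Only rows with a single symbol were used. A gene with several rows took the one with the highest mean. Pairwise differences counted genes whose higher array reached 100. Medians of the members and of the lists were taken over all their measured genes, including those below 100. The test was limma 3.58.1 (R 4.3.3), additive in MDR2 and GHR status, with 1 residual and 4.34 prior degrees of freedom, Benjamini-Hochberg at 0.05 over 10764 genes, tested on simulated data. Labels do not say whether pools came from separate litters.

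Members and gene lists were chosen with earlier results of these data known. Named genes were the members, up to 3 genes with the largest difference per list in each of 3 comparisons, and the 5 closest patterns to the resident mean, the other mean and Gpnmb. Ghr, Abcb4, Xist and Lyz1 were also named. Others (Il34, Spi1, Slc40a1, Trem2, Lamp1, S100a4, F13a1, Ms4a4c, Chil3, Nos2, Tnf, Il6, Il10, Retnla, S100a8, Ly6g, Cd9, Plin2, Itgax, Csf2rb2, Fcgr1, Fcgr4) were picked after their values were seen. Alternatives were no level filter, a filter at 329, a 2-fold threshold, cyclic loess, median and hepatocyte-marker centring, the mean of all rows, log2(intensity + 16), and limma with trend and robust settings.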

Additional observations from a re-analysis of the deposited data

Results flagged for a closer look

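In 3 resident genes the difference with loss of GHR had opposite signs with and without MDR2, each larger than 0.23 log2. That yardstick was derived from the robust SD of the difference of differences over all genes, not measured on pairwise differences. It contains real departures from additivity as well as error. The difference of the differences (without MDR2 minus with MDR2) was -1.05 for Clec4f, -0.88 for Timd4 and -0.91 for Cd5l. Each difference compares 1 array with 1 array, and the difference between the backgrounds was not tested. The GHR knockout pool, with Xist at 1400, enters all 3 values.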

How the results depend on the processing

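No paired analysis was possible because each genotype was 1 pool and the labels carry no replicate numbers. Of 9 passing members, 2 were at least 1.5-fold apart in the double knockout against MDR2 knockout comparison, and this count fell to 1 with the filter at 329 and to 1 with a 2-fold threshold. It was 3 with median centring, where Clec4f at -0.59 was lower, and 3 with hepatocyte centring, where Cd68 at 0.65 was higher. In the GHR knockout against wild-type comparison the count of 2 became 1 with the filter at 329, 0 with the 2-fold threshold, 0 with median centring and 5 with hepatocyte centring. In the double knockout against GHR knockout comparison 6 members became 3 at 2-fold, 5 with cyclic loess (without Clec4f) and 5 with log2(intensity + 16) (without Adgre1). The 3 members called by limma for loss of MDR2 became 0 without the level filter, where limma called 0 of 19938 genes but 2927 had an unadjusted p under 0.05 (6 of 10 members), and 0 with hepatocyte centring, where 6 of 9 members did. The causes were not tested. All other counts stayed within 1.5 times, and medians of the resident and other genes moved by less than 0.23 log2 under every scaling tried. Of 300 values of single members under alternatives, 298 moved by less than that, the exceptions being 2 Gpnmb differences with log2(intensity + 16). Much of this was fixed in advance. Each member had 1 row, so the mean of all rows left its values unchanged. Median and hepatocyte centring shifted all genes alike, by at most 0.12 log2 in a pairwise comparison. Only cyclic loess and log2(intensity + 16) could have moved members or their medians by 0.23 log2. Single arrays with unknown detection limit what can be said of Marco and Gpnmb.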

Other observations

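Within the list of lipid-associated macrophage genes, Fabp5, Atp6v0d2 and Plin2 had neither the order of the broad macrophage genes nor that of Timd4 and Cd5l. Fabp5, a fatty acid binding protein, stood at 1033 in the wild-type, 230 in the MDR2 knockout, 219 in the GHR knockout and 274 in the double knockout pool. Atp6v0d2, a subunit of the vacuolar proton pump, was 67, 185, 561 and 346. Plin2, the coat protein of lipid droplets, was 2066, 1988, 2463 and 2008. Among the stellate cell markers, the retinol esterifying enzyme gene Lrat was 505, 608, 766 and 393, with a difference of differences of -1.23, and the smooth muscle actin gene Acta2 was 150, 324, 216 and 223.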
